A study of Danio rerio with 49 samples.

Results

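A set of 4 genes that mark radial glia in the zebrafish spinal cord (*gfap*, *vim*, *fabp7a* and *sox2*) was followed across uninjured and injured cord on both sides of a transection. They were chosen by name, as markers of this cell type, with earlier results of these data known, and are 4 of the 40085 genes in the expression table. RNA-seq of spinal cord tissue was available for 49 libraries in 10 groups. Injured fish gave the 5 segments rostral and the 5 caudal to the lesion at 1, 2, 4 or 6 wpi (weeks after injury), and separate uninjured fish gave the matching segments. All fish were of the AB strain, a wild-type laboratory line, with no transgene or drug in any group, and injured fish had a complete transection of the cord at the seventh segment. Each group had 5 libraries, except caudal 6 wpi with 4, which are numbered 1, 2, 3 and 5. The study used juvenile or adult fish aged 6 to 8 weeks, and their age at sampling is not stated by group. No uninjured group was sampled for each week, so time after injury and age cannot be told apart. The tissue was pooled, with 3 fish named per group, and whether the libraries of a group came from different fish is not stated. Spreads and p-values below therefore measure the spread between libraries, which may be technical.

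Radial glia line the central canal of the fish cord and send processes to its outer surface. They persist in the adult, unlike in most of the mammalian nervous system, and they serve both as the glial scaffold and as progenitors that divide after injury. *gfap* and *vim* encode intermediate filament proteins, glial fibrillary acidic protein and vimentin, which form the cytoskeleton of these cells and are textbook markers of astroglial reaction to damage in mammals. *fabp7a* encodes a brain-type fatty acid binding protein that carries lipids within radial glia. *sox2* encodes a SoxB transcription factor that maintains neural progenitors.

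Levels are given as FPKM, fragment numbers corrected for gene length and for a scaling factor of each library, so that genes can be compared within a library. *fabp7a* (ENSDARG00000007697, chr17:15433518-15435887, plus strand, 858 bp counted) had a mean of 3486 FPKM over the 49 libraries and ranked 15 of 40085 genes. *gfap* (ENSDARG00000025301, chr3:31792441-31804481, minus strand, 2651 bp) had a mean of 1173 FPKM and ranked 37. *vim* (ENSDARG00000010008, chr24:32176155-32192681, plus strand, 1861 bp) followed with 104 FPKM at rank 477, and *sox2* (ENSDARG00000070913, chr22:37347896-37349967, minus strand, 2072 bp) with 53.9 FPKM at rank 908. Coordinates are those of the deposited table, whose build is danRer11 by the submitters' processing notes. *gfap* and *fabp7a* were thus far above *vim* and *sox2*.

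The order of the 4 genes by FPKM was nearly fixed. *gfap* exceeded *vim* and *vim* exceeded *sox2* in 49 of 49 libraries, with median ratios of 10.5 and 1.93. *fabp7a* exceeded *gfap* in 42 of 49, with a median ratio of 2.75. Counting error was small beside the spread between libraries, because even the thinnest value, 870 fragments on *sox2*, carries a counting error of 3.39%. The *sox2* gene lies inside *sox2ot* on the same strand (chr22:37347440-37526467, mean 8.20 FPKM), and *vim* lies inside TRDMT1 on the opposite strand (chr24:32151629-32196412, mean 2.30 FPKM). The library kit is not stated to mark strand, so fragments shared with these hosts cannot be told apart. No other gene of the table overlapped *gfap* or *fabp7a*.

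The libraries held 4359571 to 26940599 fragments on genes (median 19801039), and mitochondrial genes took 9.25% to 33.4% of them. Libraries numbered 1 to 3 and libraries numbered 4 and 5 differed in depth, with medians of 14077227 (n = 30) and 22556921 (n = 19) fragments, and in mitochondrial share, with medians of 16.8% and 22.7%. The labels give no reason for this split. Summed levels of markers of other cells differed between groups. The median summed level of 8 macrophage and microglia markers went from 977 FPKM in uninjured rostral cord to 10129 at 1 wpi and from 985 to 14505 in caudal cord, and was 5593 and 4900 at 6 wpi. At 1 wpi 5 of the 7 tested were higher on each side, where 6.32% of all genes were called higher rostrally and 7.62% caudally. Most of this sum was *apoeb* (mean 6738 FPKM over the 49 libraries), called higher in 7 of 8 comparisons with uninjured cord, while *cd74a* (mean 864 FPKM) was called in none. That of 8 oligodendrocyte markers went from 83125 to 32161 FPKM at rostral 1 wpi and from 75537 to 19919 at caudal 1 wpi, where 3 and 4 of 8 were called lower beside 3.5% and 5.53% of all genes. Most of the oligodendrocyte sum was *mbpa* (mean 32712 FPKM) and *plp1b* (mean 10250 FPKM), called lower in 1 and 3 of 8 comparisons. The median sum of 12 neuron markers went from 2699 to 1737 FPKM at rostral 1 wpi and from 2947 to 1492 at caudal 1 wpi. Of the 11 tested, 1 and 4 were called lower. Most of that sum was *snap25a* (mean 1476 FPKM), which was called in no comparison. Sums of 8 fibroblast markers had medians of 91.4 to 161 FPKM over the groups, and those of 3 erythrocyte markers 74.5 to 670 FPKM. Skeletal muscle (5 genes), keratinocyte (6 genes, 1 at 0) and endothelial (3 genes) markers had median sums under 10 FPKM in every group. Single libraries were higher, up to 171 FPKM of keratinocyte markers at caudal 2 wpi. For muscle markers the highest sums were 61.6 FPKM in uninjured caudal cord and 44.1 at rostral 1 wpi. In bulk tissue, fewer cells of a type and less RNA per cell cannot be told apart, and the part that these shifts had in the levels below was not tested.

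**Figure D1:**
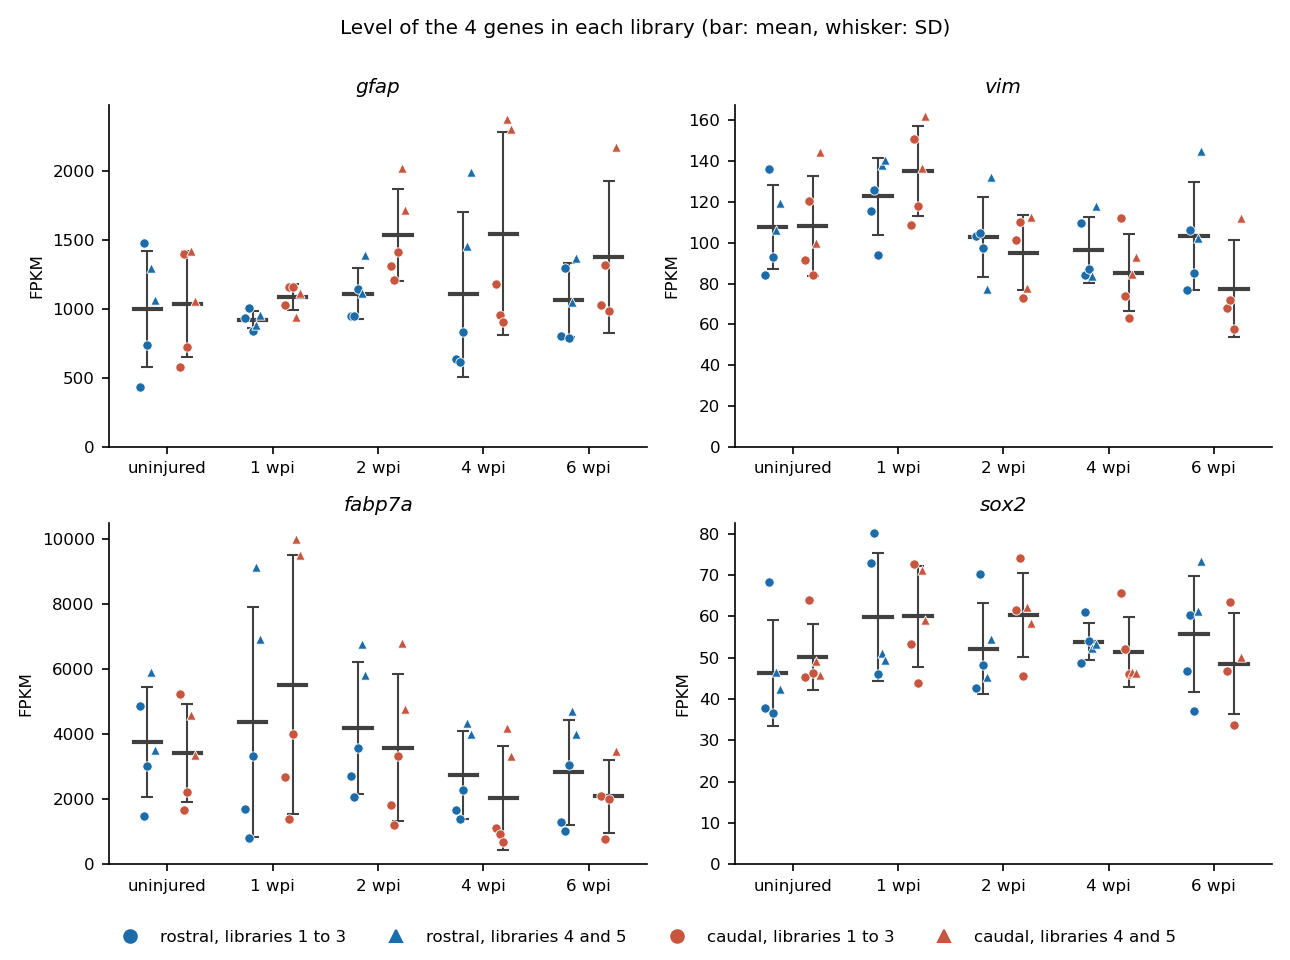
Level of *gfap*, *vim*, *fabp7a* and *sox2* (FPKM, linear axis from 0) in each library of uninjured cord and at 1, 2, 4 and 6 wpi, rostral in blue and caudal in red, with circles for libraries 1 to 3, triangles for libraries 4 and 5, bars for the mean and whiskers for the SD. *fabp7a* ranges from 695 to 10017 FPKM, with the triangles above the circles in 8 of 10 groups, while *sox2* stays between 33.8 and 80.2 FPKM.

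*gfap* showed its highest group means in caudal cord from 2 wpi on, but no difference from uninjured cord passed the test. In uninjured rostral cord *gfap* read 432, 1475, 739, 1294 and 1060 FPKM in replicates 1 to 5. At rostral 1 wpi it read 934, 1002, 838, 880 and 952 FPKM, and at rostral 2 wpi 947, 949, 1147, 1114 and 1392 FPKM. Uninjured libraries were thus widely scattered, and both injured groups lay inside their range. Rostral values at 4 wpi were 639, 616, 831, 1452 and 1990 FPKM, and at 6 wpi 805, 1295, 790, 1048 and 1368 FPKM. At 4 wpi the libraries numbered 4 and 5 stood above the other 3, and the highest of them exceeded every uninjured library.

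In uninjured caudal cord *gfap* read 578, 1397, 725, 1416 and 1055 FPKM in replicates 1 to 5. Caudal 1 wpi libraries read 1029, 1160, 1160, 943 and 1116 FPKM, and those at 2 wpi 1313, 1208, 1411, 2024 and 1718 FPKM. Every caudal library at 2 wpi was above every one at 1 wpi, while 2 wpi still overlapped the uninjured range. At caudal 4 wpi the values were 1181, 952, 906, 2379 and 2303 FPKM, and at 6 wpi, for replicates 1, 2, 3 and 5, 1025, 1320, 982 and 2173 FPKM. In both weeks the libraries numbered 4 or 5 were the high ones, and libraries 1 to 3 lay within the uninjured range.

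Group means of *gfap* ran from 1544 ± 736 FPKM (SD, n = 5) at caudal 4 wpi, 1535 ± 333 (n = 5) at caudal 2 wpi and 1375 ± 552 (n = 4) at caudal 6 wpi down to 921 ± 63.8 (n = 5) at rostral 1 wpi. All 9 pairs of neighbours in this order overlapped. Against uninjured caudal cord (1034 ± 381 FPKM), the log2 difference at 2 wpi was 0.63 (SE 0.31), a 1.55-fold higher level with a 95% interval of 0.973 to 2.46. It did not pass the threshold (adjusted p = 0.260, limma with Benjamini-Hochberg adjustment over all genes). At caudal 1, 4 and 6 wpi the folds were 1.11 (0.706 to 1.74), 1.45 (0.785 to 2.68) and 1.34 (0.741 to 2.42), and at rostral 1, 2, 4 and 6 wpi 1.00 (0.586 to 1.72), 1.20 (0.735 to 1.95), 1.08 (0.564 to 2.07) and 1.13 (0.666 to 1.91). The interval lay within a 2-fold change either way in 4 of these 8 comparisons.

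*vim* had its highest means at 1 wpi on both sides and its lowest in late caudal cord. Uninjured rostral libraries read 84.4, 136, 93.2, 106 and 120 FPKM in replicates 1 to 5, and those at 1 wpi 116, 126, 94.2, 138 and 140 FPKM. Later rostral values were 103, 105, 97.6, 77.2 and 132 FPKM at 2 wpi, 110, 84.4, 86.9, 83.5 and 118 at 4 wpi, and 76.7, 106, 85.2, 102 and 145 at 6 wpi. These groups overlapped throughout, with 2 libraries at 1 wpi and 1 at 6 wpi above the uninjured range, and 1 at 2 wpi, 2 at 4 wpi and 1 at 6 wpi below it.

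Uninjured caudal libraries had *vim* at 91.4, 120, 84.1, 99.8 and 145 FPKM, and those at 1 wpi at 109, 151, 118, 137 and 162 FPKM. Values at 2 wpi were 102, 110, 73.1, 78.0 and 112 FPKM, and at 4 wpi 112, 73.9, 62.9, 84.8 and 92.9 FPKM. At 6 wpi replicates 1, 2, 3 and 5 read 68.0, 72.1, 57.8 and 112 FPKM. At 1 wpi 2 libraries lay above the uninjured range and at 6 wpi 3 lay below it, and injured and uninjured ranges overlapped in all 4 weeks.

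Group means of *vim* ran from 135 ± 22.2 FPKM (n = 5) at caudal 1 wpi and 123 ± 18.9 (n = 5) at rostral 1 wpi to 77.5 ± 23.9 (n = 4) at caudal 6 wpi. Uninjured cord had 108 ± 20.6 FPKM (n = 5) rostrally and 108 ± 24.6 (n = 5) caudally, and neighbours in the order overlapped in 9 of 9 cases. The fold against uninjured cord was 1.26 (95% interval 0.927 to 1.72) at caudal 1 wpi, with adjusted p = 0.308 by limma. At caudal 6 wpi it was 0.709 (0.489 to 1.03), a log2 difference of -0.50 (SE 0.24), with adjusted p = 0.492 by limma. The other 6 folds lay between 0.790 at caudal 4 wpi and 1.14 at rostral 1 wpi, and 7 of the 8 intervals were within a 2-fold change either way.

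*fabp7a* was the most variable of the 4, with wide spread inside every group. Uninjured rostral libraries read 4869, 1493, 3033, 5921 and 3505 FPKM in replicates 1 to 5, and those at 1 wpi 1694, 814, 3319, 9144 and 6923 FPKM. At rostral 2 wpi the values were 2711, 2060, 3568, 6776 and 5823 FPKM. The 1 wpi group held a library below and 2 libraries above the whole uninjured range. Rostral libraries had 1681, 1404, 2287, 4335 and 4001 FPKM at 4 wpi and 1319, 1031, 3067, 4725 and 3996 FPKM at 6 wpi. Replicates 4 and 5 were the highest libraries in each injured rostral group.

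Caudal uninjured cord had *fabp7a* at 5225, 1683, 2238, 4597 and 3365 FPKM. The 1 wpi libraries read 2688, 1404, 4006, 10017 and 9513 FPKM, and those at 2 wpi 1838, 1206, 3327, 6815 and 4785 FPKM. Replicates 4 and 5 at 1 wpi were the highest values of the series, while replicate 2 of the same group lay below every uninjured library. At 4 wpi the values were 1118, 920, 695, 4187 and 3336 FPKM, and at 6 wpi, for replicates 1, 2, 3 and 5, 2109, 768, 2003 and 3483 FPKM. At 4 wpi 3 libraries lay below the uninjured range, and the groups overlapped.

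Group means of *fabp7a* ran from 5526 ± 3982 FPKM (n = 5) at caudal 1 wpi to 2051 ± 1597 (n = 5) at caudal 4 wpi, with 3764 ± 1706 and 3422 ± 1505 (n = 5 each) in uninjured rostral and caudal cord. The coefficient of variation within a group was 44.0% to 80.9%. The largest difference, at caudal 4 wpi, was a log2 value of -0.99 (SE 0.58) or 0.505-fold (95% interval 0.212 to 1.20), with adjusted p = 0.495 by limma. At caudal 1 wpi the fold was 1.36 (0.570 to 3.26), and at rostral 1 wpi 0.913 (0.324 to 2.57). The last is a fold of mean log2 values, and the mean FPKM there was the higher one (4379 against 3764), while the log2 difference turned from -0.13 to 0.18 under quantile normalization. In none of the 8 comparisons with uninjured cord was the interval within a 2-fold change either way, so a change of that size was not excluded by these libraries for *fabp7a*.

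*sox2* was the steadiest of the 4. Uninjured rostral libraries read 37.8, 68.3, 36.6, 46.5 and 42.5 FPKM, and those at 1 wpi 72.8, 80.2, 46.0, 51.0 and 49.4 FPKM. Rostral values were 42.6, 70.3, 48.2, 45.4 and 54.4 FPKM at 2 wpi, 48.7, 60.9, 53.9, 52.3 and 53.4 at 4 wpi, and 46.7, 60.3, 37.1, 61.3 and 73.4 at 6 wpi. At rostral 1 wpi 2 libraries lay above the uninjured range, and the groups overlapped.

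Caudal *sox2* read 45.2, 64.0, 46.2, 49.1 and 45.8 FPKM in uninjured cord and 53.3, 72.7, 43.9, 71.1 and 59.0 at 1 wpi. It read 61.4, 74.1, 45.6, 62.4 and 58.3 FPKM at 2 wpi and 65.7, 52.1, 46.2, 46.6 and 46.3 at 4 wpi. Replicates 1, 2, 3 and 5 at 6 wpi had 46.8, 63.4, 33.8 and 50.3 FPKM. All of these groups overlapped the uninjured one. Group means ran from 60.4 ± 10.2 FPKM (n = 5) at caudal 2 wpi to 46.3 ± 12.9 (n = 5) in uninjured rostral cord, a ratio of 1.30 between the highest and the lowest. The highest fold against uninjured cord was 1.29 (95% interval 0.909 to 1.84) at rostral 1 wpi, with adjusted p = 0.365 by limma, and all 8 intervals were within a 2-fold change either way.

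None of the 4 genes passed the test in any comparison of an injured group with its uninjured group. By the same test, the share of all genes called was 9.82%, 15.14%, 6.42% and 4.26% at rostral 1, 2, 4 and 6 wpi, and 13.16%, 6.36%, 1.38% and 0.461% at the same weeks in caudal cord. Of the 32 tests, 0 had an unadjusted p under 0.05 by limma. Voom on recovered fragments gave 1, quantile normalization 3 and the library number as a block 4. After adjustment each of these called 0. The intervals included a 2-fold higher level in 8 of 32 tests and a 2-fold lower level in 7 of 32. Comparisons within a region share their uninjured libraries and are not independent of each other.

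**Figure D2:**
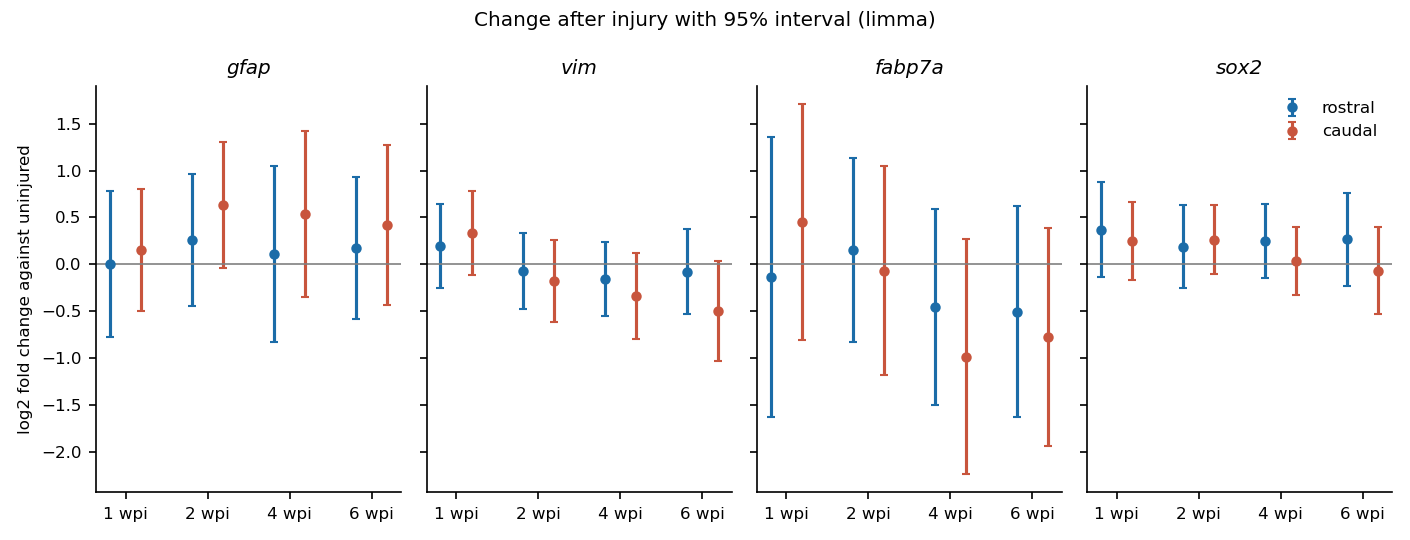
Log2 fold change of *gfap*, *vim*, *fabp7a* and *sox2* against uninjured cord of the same region at 1, 2, 4 and 6 wpi, with points for the limma estimate and whiskers for its 95% interval, rostral in blue and caudal in red. Every interval includes 0, and those of *fabp7a* are the widest, as at caudal 4 wpi with -0.99 (SE 0.58).

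Week-to-week changes were compared next. Between 1 and 2 wpi in caudal cord the estimates for *gfap* and *vim* had opposite signs, and the difference between these genes was not tested there. *gfap* was 1.40-fold higher at 2 wpi than at 1 wpi (log2 0.48, SE 0.23, 95% interval 0.989 to 1.97). This was the only comparison of any of the 4 genes in which the groups did not overlap. The share of all genes without overlap was not counted, so the separation is a description only. The adjusted p of *gfap* was 0.640 by limma. *vim* was 0.700-fold (log2 -0.51, SE 0.19, interval 0.527 to 0.929), with an unadjusted p of 0.0179 and an adjusted p of 0.502 by limma, the only unadjusted p under 0.05 among the 92 tests of these genes without a block. Neither passed the threshold. Libraries of equal number deviated together between these weeks, and with the number as a block the SE was 0.18 for *gfap* (adjusted p = 0.292, limma) and 0.13 for *vim* (adjusted p = 0.175, limma). *fabp7a* was then at -0.52 (SE 0.19, adjusted p = 0.277, limma). With the block 18 of the 92 unadjusted p-values were under 0.05 and none passed after adjustment. The share of all genes called in the 6 week-to-week comparisons was 0.0036% at 2 against 1 wpi, 0.00713% at 4 against 2 wpi and 0% at 6 against 4 wpi in rostral cord, and 0%, 0.0392% and 0% in caudal cord, so that the test called few genes of any kind. *fabp7a* was lower at 4 than at 2 wpi by log2 values of -0.92 (SE 0.63) caudally and -0.61 (SE 0.45) rostrally, without passing the test. With the block the SE was 0.31 caudally (adjusted p = 0.280, limma) and 0.17 rostrally (adjusted p = 0.193, limma).

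Rostral and caudal cord were compared at each time point. *gfap* had higher means caudally at every injured time point, with log2 differences of 0.23, 0.46, 0.51 and 0.33 at 1, 2, 4 and 6 wpi against 0.09 in uninjured cord, none past the threshold by limma. The share of all genes called was 0.0213% in uninjured cord and 0.047%, 0.122%, 0.128% and 0.0319% at 1, 2, 4 and 6 wpi. At each time point, rostral and caudal libraries with equal numbers deviated together (all 24 libraries correlated best with their own number), so the ratio within such pairs was also examined. Within pairs, *gfap* was higher in caudal cord in 19 of 19 injured pairs, with ratios of 1.02 to 1.85 and a median of 1.24. In uninjured cord it was higher caudally in 2 of 5 pairs (0.947 to 1.34, median 0.995). How many of all genes lay on 1 side in every such pair was not counted, so how unusual these counts are is not known. With libraries scaled by their total fragments or by quantiles, the counts were 19 and 18 of 19 in injured cord and 4 of 5 under both in uninjured cord, where the median ratio became 1.12 and 1.18. In uninjured cord the pair count and the median ratio therefore changed side with the scaling, although the mean log2 difference was already 0.09 as deposited. The median ratio in injured cord stayed above 1, at 1.40 and 1.37.

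Median caudal over rostral ratios of *gfap* within pairs were 1.16, 1.27, 1.54 and 1.26 at 1, 2, 4 and 6 wpi. With the pair number as a block, the difference was 0.46 (SE 0.12, adjusted p = 0.123) at 2 wpi and 0.51 (SE 0.17, adjusted p = 0.207) at 4 wpi by limma, so no call was made. The block moved the number of genes called over the whole table from 34 to 484 at 2 wpi and from 36 to 249 at 4 wpi. Whether the change from uninjured cord differed between the regions was tested by an interaction term. For *gfap* it was 0.37 (SE 0.16, adjusted p = 0.498) at 2 wpi and 0.43 (SE 0.19, adjusted p = 0.424) at 4 wpi with the block in limma, where the unadjusted p was under 0.05 in both. This was not particular to *gfap*, as 4 of the 16 blocked terms had an unadjusted p under 0.05 by limma. The rest of these were *vim* at 6 wpi, -0.41 (SE 0.13, adjusted p = 0.563), and *fabp7a* at 1 wpi, 0.58 (SE 0.21, adjusted p = 0.450). The block called 102 genes of the whole table at 2 wpi and 137 at 4 wpi in this test. Without the block the smallest unadjusted p of the 16 interaction tests in limma was 0.198, and 0% of all genes were called at each of the 4 weeks.

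Pairs of the other 3 genes were mixed in direction. *vim* was higher caudally in 7 of 19 injured pairs, and in 0 of 4 at 6 wpi, where the median ratio was 0.726 and the blocked log2 difference -0.42 (SE 0.11, adjusted p = 0.567, limma). *fabp7a* was higher caudally in 5 of 5 pairs at 1 wpi, with a median ratio of 1.37, and in 0 of 5 at 4 wpi, with a median of 0.665. Its blocked log2 differences there were 0.46 (SE 0.17, adjusted p = 0.364) and -0.65 (SE 0.26, adjusted p = 0.268) by limma. *sox2* was higher caudally in 9 of 19 injured and 4 of 5 uninjured pairs. None of the 20 regional tests of the 4 genes passed the threshold, with or without the block.

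**Figure D3:**
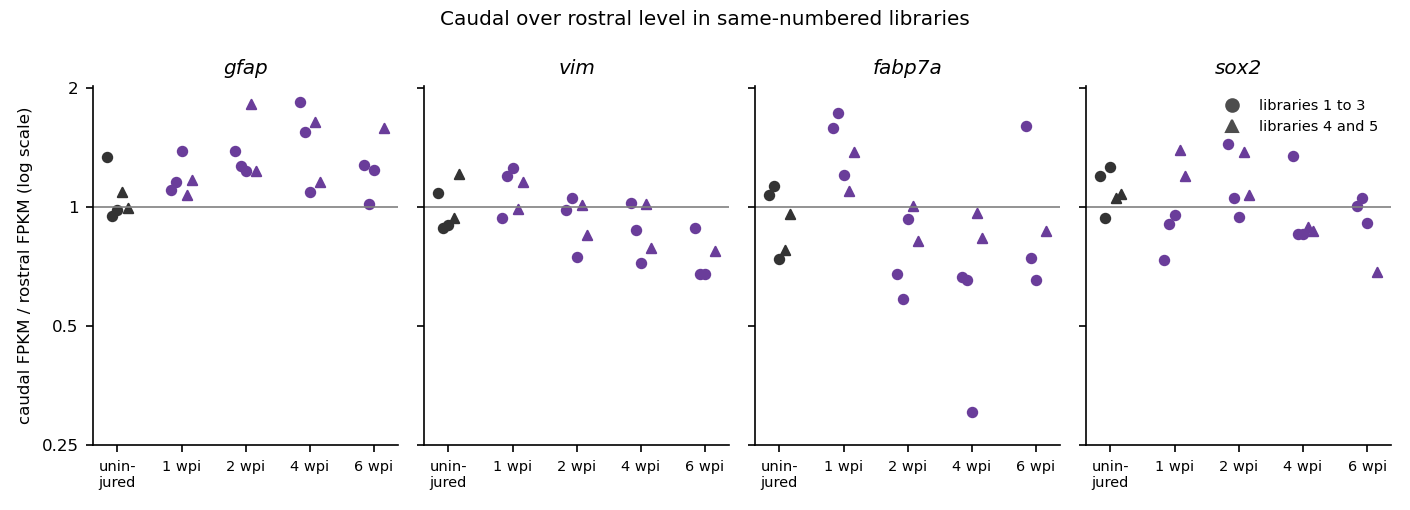
Ratio of caudal to rostral FPKM (log axis) of *gfap*, *vim*, *fabp7a* and *sox2* in libraries of the same number at each time point, uninjured pairs in dark grey and injured pairs in purple, with circles for libraries 1 to 3 and triangles for libraries 4 and 5. All 19 injured *gfap* pairs lie above a ratio of 1, from 1.02 to 1.85, whereas the pairs of *vim* at 6 wpi all lie below it.

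To ask whether the 4 genes changed unequally, the log2 ratio of 2 genes was taken within each library, in which a scaling common to the library cancels. *gfap* over *vim* was 2.66, 3.53, 3.11, 3.82 and 2.86 in uninjured caudal cord, replicates 1 to 5, and 3.91, 4.19, 4.08 and 4.27 in replicates 1, 2, 3 and 5 at caudal 6 wpi. These groups did not overlap, which held in 1 of the 48 ratio comparisons. How often ratios of other genes separate was not counted. The means were 4.12 ± 0.16 (n = 4) and 3.20 ± 0.48 (n = 5), a difference of 0.92 (exact two-sided permutation p = 0.0159). The test as run here can give no smaller p for 4 against 5 libraries. The ratio was also higher at caudal 2 wpi by 0.81 (exact permutation p = 0.0397) and at caudal 4 wpi by 0.88 (exact permutation p = 0.0476).

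*gfap* over *fabp7a* stood at -0.17 ± 0.49 (n = 5) at caudal 4 wpi against -1.69 ± 1.03 (n = 5) in uninjured caudal cord, a difference of 1.52 by an exact permutation test with p = 0.0238. *vim* over *sox2* was lower in injured cord by log2 values of -0.44 at caudal 2 wpi (exact permutation p = 0.0238), -0.37 at caudal 4 wpi (exact permutation p = 0.0476), -0.41 at rostral 4 wpi (exact permutation p = 0.0476) and -0.34 at rostral 6 wpi (exact permutation p = 0.0397). In all, 48 such ratios were tested, 8 had an unadjusted p under 0.05, and none passed after adjustment over the 48, the lowest adjusted value being 0.286. With 0.00794 (5 against 5) and 0.0159 (4 against 5) as the smallest p these exact permutation tests can give, a single ratio could not have passed that adjustment.

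**Figure D4:**
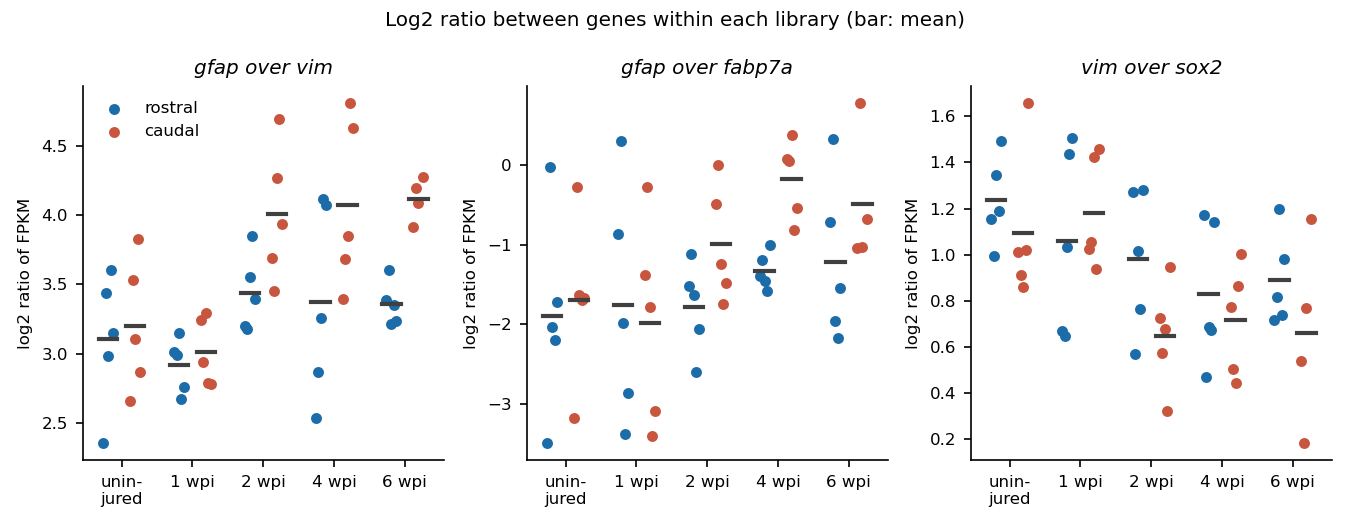
Log2 ratio of FPKM between 2 of the genes within each library, for *gfap* over *vim*, *gfap* over *fabp7a* and *vim* over *sox2*, by time point, rostral in blue and caudal in red, with points for libraries and bars for the mean. The *gfap* over *vim* ratio of caudal libraries at 6 wpi, 3.91 to 4.27, lies above all 5 uninjured caudal libraries. This was the only separation among 48 ratio comparisons with uninjured cord.

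Levels also moved with the number that a library carries, and most so for *fabp7a*. The *fabp7a* mean of libraries 4 and 5 exceeded that of libraries 1 to 3 in 10 of 10 groups, by 1.31 to 4.14 times (median 2.37), and both sets were fully separated in 8 of them. The median log2 difference between the sets, 1.25, was larger in absolute size in 1.20% of 16311 genes with a mean of at least 1 FPKM. The *gfap* mean was higher in libraries 4 and 5 in 8 of 10 groups (ratio 0.922 to 2.48), that of *vim* in 10 of 10 (1.00 to 1.70) and that of *sox2* in 3 of 10 (0.757 to 1.40). The median difference was larger in absolute size in 32.0% of the same genes for *gfap*, 67.0% for *vim* and 86.6% for *sox2*. By number, *fabp7a* was highest in library 4 in 8 of 9 groups and lowest in library 2 in 9 of 10, *vim* was highest in library 5 in 8 of 10, and *sox2* was highest in library 2 in 8 of 10.

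Within these sets, comparisons with uninjured cord of *fabp7a* depended on the set. Among libraries 1 to 3 its log2 difference was below 0 in all 8 comparisons, from -1.59 at caudal 4 wpi to -0.05 at rostral 2 wpi. Among libraries 4 and 5 it was above 0 in 4 of 7, from -0.13 to 1.31, the highest at caudal 1 wpi (adjusted p = 0.0683, limma, 2 libraries against 2). For caudal *gfap* the difference at 2 wpi was 0.64 in libraries 1 to 3 and 0.61 in libraries 4 and 5, and at 4 wpi 0.27 and 0.94. At 1 wpi it was 0.41 and -0.25 in the same sets. *vim* at caudal 6 wpi was -0.57 in libraries 1 to 3, and with 1 library left in the other set no value was obtained there.

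Other genes of radial glia and neural progenitors, listed for this tissue, included several that passed the test and many that did not. *glula*, *s100b*, *slc1a3a*, *slc1a2b*, *gja1b*, *sox9a*, *sox9b* and *hepacama*, for example, were called in 0 of 8 comparisons with uninjured cord. Those described next are the ones called in the most comparisons. Of 38 listed genes 33 were matched and 30 or 31 were tested in a comparison. *foxj1a*, a transcription factor of ciliated cells such as those lining the central canal, was higher in all 8 comparisons with uninjured cord. It went from 2.37 ± 0.569 FPKM (n = 5) in uninjured rostral cord to 17.2 ± 3.55 at 1 wpi and 31.9 ± 19.6 at 6 wpi (log2 2.81, SE 0.22, adjusted p = 2.03e-05, and 3.51, SE 0.38, adjusted p = 0.000665, limma). In caudal cord it went from 3.42 ± 0.302 to 12.4 ± 3.52 FPKM at 1 wpi and 9.94 ± 1.87 at 6 wpi (log2 1.78, SE 0.21, adjusted p = 0.000410, and 1.50, SE 0.18, adjusted p = 0.00827, limma).

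*slc1a3b*, which encodes a glial glutamate transporter, was higher in 6 of 8 comparisons. Its level went from 1.40 ± 0.712 to 39.1 ± 11.7 FPKM at rostral 1 wpi (log2 4.79, SE 0.33, adjusted p = 8.19e-06, limma) and was still higher at rostral 6 wpi (log2 2.65, SE 0.35, adjusted p = 0.00214, limma). Caudally it went from 1.96 ± 0.802 to 45.6 ± 13.1 FPKM at 1 wpi and did not pass at 4 wpi (6.42 ± 4.26, adjusted p = 0.0806, limma) or 6 wpi (3.92 ± 1.80, adjusted p = 0.295, limma). *nes*, which encodes the progenitor filament protein nestin, was higher at 1 and 2 wpi on both sides. It read 2.40 ± 0.667 FPKM in uninjured and 5.84 ± 1.26 at 1 wpi rostrally (log2 1.27, SE 0.23, adjusted p = 0.00589, limma), and 2.34 ± 0.554 and 7.07 ± 1.37 caudally (log2 1.57, SE 0.22, adjusted p = 0.00128, limma).

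Fewer listed genes were lower. *msi2b*, which encodes an RNA-binding protein of the Musashi family, was lower at rostral 2 wpi (log2 -0.43, SE 0.12, adjusted p = 0.0335, limma) and caudal 1 wpi (-0.57, SE 0.15, adjusted p = 0.0255, limma). The Notch target *her4.2* was lower at rostral 1 wpi (-1.13, SE 0.27, adjusted p = 0.0216, limma) and *her4.1* at caudal 4 wpi (-1.72, SE 0.35, adjusted p = 0.0340, limma). The *her4* copies are nearly identical, so the counts of each are uncertain. Across the list, 3, 3, 2 and 6 genes were higher and 1, 2, 0 and 0 lower at rostral 1, 2, 4 and 6 wpi, and 3, 3, 1 and 1 were higher and 1, 0, 1 and 0 lower caudally. Of all genes tested, 6.32%, 9%, 5% and 3.44% were called higher and 3.5%, 6.14%, 1.43% and 0.823% lower at the 4 rostral weeks, and 7.62%, 4.47%, 1.15% and 0.345% higher and 5.53%, 1.89%, 0.226% and 0.116% lower at the caudal ones. The median log2 change of the list lay between -0.14 and 0.12, and that of all genes tested was -0.03 at the lowest.

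The paralogs and relatives of the 4 markers were examined as families. Of 13 intermediate filament genes tested, 3, 4, 0 and 0 were higher at rostral 1, 2, 4 and 6 wpi. At the same weeks 2, 3, 4 and 3 were lower. Caudally 3, 3, 0 and 0 were higher and 3, 3, 1 and 0 lower. Of all genes, 6.32%, 9%, 5% and 3.44% were called higher and 3.5%, 6.14%, 1.43% and 0.823% lower rostrally. Caudally the shares were 7.62%, 4.47%, 1.15% and 0.345% higher and 5.53%, 1.89%, 0.226% and 0.116% lower. Genes called higher included *krt18b* and *krt8*, simple epithelial keratins, as well as *nes*. *krt18b* went from 8.16 ± 5.73 to 88.2 ± 16.2 FPKM at rostral 1 wpi (log2 3.68, SE 0.40, adjusted p = 0.000239, limma) and from 9.85 ± 9.18 to 89.8 ± 23.4 at caudal 1 wpi (log2 3.56, SE 0.48, adjusted p = 0.000880, limma). *nefmb*, the medium neurofilament chain, was lower in 7 of 8 comparisons, from 691 ± 225 to 205 ± 107 FPKM at rostral 1 wpi (log2 -1.87, SE 0.39, adjusted p = 0.0107, limma) and from 800.2 ± 329 to 172 ± 98.8 at caudal 1 wpi (log2 -2.31, SE 0.39, adjusted p = 0.00325, limma). The light chains *nefla* and *neflb* were lower in 6 and 5 of 8. The other neuronal filament genes *nefma*, *prph* and *inab* were called in none, and *inaa* was lower in 1.

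Of 6 fatty acid binding protein genes tested, *fabp4a*, the adipocyte and macrophage type in mammals, passed the test at 1 wpi and at no later week, at 360 ± 193 FPKM against 57.6 ± 21.6 rostrally (log2 2.55, SE 0.40, adjusted p = 0.00236, limma) and 474 ± 302 against 57.2 ± 26.5 caudally (log2 2.90, SE 0.49, adjusted p = 0.00325, limma). *fabp10a*, the liver type, was lower at rostral 2 wpi and caudal 1 wpi from levels under 1 FPKM. The paralog *fabp7b* averaged 21.5 FPKM over the 49 libraries and passed in no comparison. Of 6 SoxB genes tested besides *sox2*, *sox14* and *sox1b* were higher at rostral 6 wpi, from 3.18 ± 0.482 to 6.09 ± 0.730 FPKM (log2 0.92, SE 0.17, adjusted p = 0.0107, limma) and from 4.02 ± 1.08 to 7.46 ± 1.50 (log2 0.89, SE 0.23, adjusted p = 0.0489, limma). At rostral 6 wpi 3.44% of all genes were called higher. No SoxB gene passed in the other 7 comparisons. Of 9 proliferation markers, 4 were higher at 1 wpi and 3 at 2 wpi in each region, and none at the later weeks. Of all genes, 6.32% and 9% were called higher at 1 and 2 wpi rostrally, and 7.62% and 4.47% caudally. The part of the proliferation or of the macrophage markers in any listed change was not tested.

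**Figure D5:**
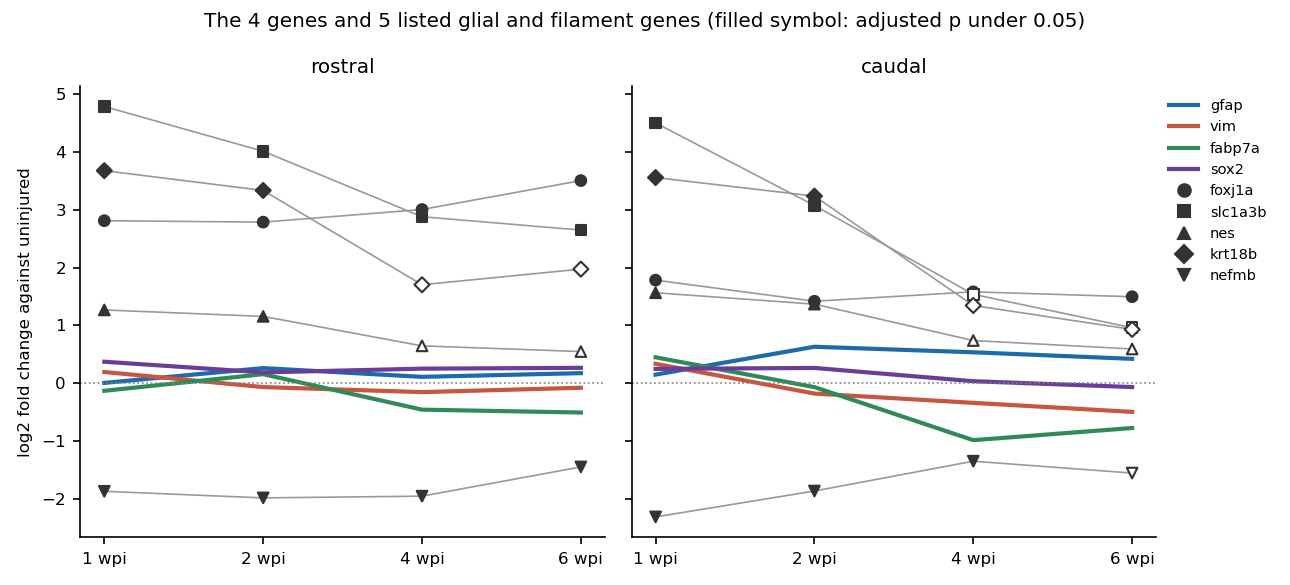
Log2 fold change against uninjured cord at 1, 2, 4 and 6 wpi of the 4 radial glia genes (coloured lines) and of *foxj1a*, *slc1a3b*, *nes*, *krt18b* and *nefmb* (grey lines), rostral left and caudal right, with filled symbols where the adjusted p was under 0.05 and open symbols where it was not. *slc1a3b* reaches 4.79 at rostral 1 wpi, while the 4 genes stay between -0.99 and 0.63. The genes with grey lines were picked among the listed genes called in the most comparisons with uninjured cord.

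The genes most like each marker were taken by Pearson's r of log2 values over the 49 libraries, among 16311 genes with a mean of at least 1 FPKM, as a description. For *fabp7a* these were *emc9* (r = 0.94), AURKAIP1 (0.93) and HMGB3 (0.93), and over the 10 group means r was 0.92, 0.96 and 0.93. For *sox2* they were SLAIN2 (0.83), NECAP2 (0.81) and DVL3 (0.81), with 0.87, 0.91 and 0.78 over group means. For *gfap* they were PHYH (0.77), SPART (0.77) and TMOD4 (0.75), with 0.83, 0.67 and 0.62 over group means, and for *vim* GLRX3 (0.76), THUMPD1 (0.75) and si:dkey-32e6.3 (0.73), with 0.90, 0.85 and 0.95. None of the 4 markers was among the genes closest to another. Between the markers r over libraries was highest for *vim* and *sox2* (0.48) and lowest for *fabp7a* and *sox2* (-0.26). Over group means it was highest for *vim* and *fabp7a* (0.83, against 0.30 over libraries). It was lowest there for *gfap* and *vim* (-0.63, against 0.14 over libraries). All points share libraries, depth and the split between library numbers.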

How the data were processed

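RNA-seq of 49 spinal cord libraries was analysed. The authors deposited FPKM values for 40085 genes with gene positions and lengths. The submitters' processing notes name HISAT2 2.0.5, featureCounts 1.5.0-p3 and danRer11, and the study used DESeq2 on this tissue. How multi-mapped reads were counted is not given in the sources used here. Multiplying FPKM by length gave back whole fragments (within 0.02) in 100% of values, from 4359571 to 26940599 per library. The scaling of the libraries followed size factors, not totals.

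Here limma 3.58.1 (R 4.3.3, eBayes with trend) was run on log2(FPKM + 0.1) for all genes averaging at least 0.1 FPKM over both groups. Changes of low genes are understated on this scale. The test was two-sided, with Benjamini-Hochberg adjustment over all genes and a threshold of 0.05. The 4 genes were read from 23 comparisons, and 48 ratios were tested by exact permutation. The fit was also run on simulated data, with changes larger than any estimated for the 4 genes. That run does not show how often changes of their size would be called. Alternatives were a pseudocount of 1, no filter, quantile normalization, all 10 groups in one fit, a replicate block, voom, libraries 1 to 3, libraries 4 and 5, and leaving out each library. Another scaling of the paired ratios was added after seeing the data.

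Replicate numbers come from the labels, which do not say that a number marks a shared pool of fish. Within a time point, deviations of rostral and caudal libraries with equal numbers correlated above 0.1 in every pair of 5 of 5 comparisons (means 0.371 to 0.507), and were taken as paired.

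The 4 genes and all lists were chosen with earlier results of these data known. Named besides the 4 were the 3 genes most correlated with each, and per list up to 3 genes per direction called in the most comparisons with uninjured cord. Names came from a table that matched 29178 of 40085 identifiers. Sequences were not analysed here.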

Additional observations from a re-analysis of the deposited data

Results flagged for a closer look

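Among the 40 groups of 4 or 5 libraries formed by the 4 genes, 1 had a single library set apart from the rest, and about 2 are given by chance. *sox2* in uninjured caudal cord was 64.0 FPKM in replicate 2, against 45.2 to 49.1 FPKM in the other 4 libraries. Library 2 had the highest *sox2* level of its group in 8 of 10 groups.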

How the results depend on the processing

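Every result of the 4 genes kept its side of the threshold under each alternative run. Some of these runs had little room to make a call. Libraries 4 and 5 alone called 0 genes of the whole table at caudal 4 wpi against uninjured cord. The ratio tests were bounded by the smallest p that so few libraries can give. Unchanged outcomes in such runs therefore say little about robustness. Over the 92 tests, 1 unadjusted p was under 0.05 by limma, 4 by voom and 18 with the replicate block. Over 1784 values from the alternatives none passed, the lowest adjusted p being 0.0683 (*fabp7a*, caudal 1 wpi, libraries 4 and 5 only, limma). Leaving out 1 library at a time, the log2 difference from uninjured cord ran from 0.44 to 0.77 for *gfap* at caudal 2 wpi, from -1.34 to -0.69 for *fabp7a* at caudal 4 wpi and from -0.69 to -0.37 for *vim* at caudal 6 wpi. Differences from uninjured cord changed sign in 14 of 252 values under other settings and in 27 of 316 with 1 library left out. Not all of these were near 0. The log2 difference of *fabp7a* at caudal 1 wpi was 0.45 with all libraries and below 0 in libraries 1 to 3. On the log2 scale *gfap* was above uninjured cord in 8 of 8 comparisons under other settings, except libraries 1 to 3 (7 of 8) and libraries 4 and 5 (5 of 7). With 1 library left out, its lowest value was below 0 at every rostral week, from -0.27 at 1 wpi to -0.01 at 2 wpi. It was also below 0 at caudal 1 wpi (-0.04). At caudal 2, 4 and 6 wpi the lowest value was 0.44, 0.35 and 0.18.

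With the replicate block, the adjusted p against uninjured cord by limma was 0.167 for *gfap* at caudal 2 wpi and 0.160 for *vim* at caudal 6 wpi (log2 -0.52). It was 0.129 for *vim* at caudal 1 wpi and 0.253 for *fabp7a* at caudal 4 wpi (log2 -0.99, SE 0.38) by limma. The block changed no call of the 4 genes. Between time points, every same-numbered pair correlated above 0.1 in 1 of 8 comparisons with uninjured cord (rostral 6 wpi). In the rest of these 8 at least 1 pair was lower. Over all 8 the mean correlation of same-numbered pairs was 0.124 to 0.223. Of 39 libraries, 22 correlated best with their own number. Between weeks every pair was above 0.1 in 4 of 6 comparisons (rostral 4 against 2 wpi and caudal 2 against 1, 4 against 2 and 6 against 4 wpi). The block called 92 to 5565 genes per comparison with uninjured cord over the whole table, against 131 to 4249 without it. All groups in one fit called 946 to 6201, no filter 53 to 3328, libraries 1 to 3 called 77 to 1531 and libraries 4 and 5 called 0 to 2247.

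The listed genes called in the most comparisons (up to 3 per list and direction) had 54 called values, which leave out the other called genes. Of these, 23 of 54 were lost in libraries 1 to 3 and 35 of 53 in libraries 4 and 5, where fewer libraries were tested. None reversed. The least steady over 18 alternatives were *fabp10a* at rostral 2 wpi (lost in 14), *nefmb* at caudal 4 wpi (12), and *sox1b* at rostral 6 wpi and *her4.1* at caudal 4 wpi (11 each). Counting error on the 4 genes was at most 3.39% at this depth, below the spread between libraries.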
